A study of Mus musculus with 6 samples.

Results

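Visual cycle and retinoid handling genes were followed in mouse retina at postnatal day 7, in 3 knockout arrays and 3 wildtype arrays. The genes were Rpe65, Lrat, Stra6, Rdh5, Rdh10, Rdh12, Rlbp1, Rbp3 and Rgr, and every probe set that the platform annotation maps to 1 of these symbols alone was taken. That gave 10 probe sets for the 9 genes, out of 22626 probe sets that were not controls and that stood for 12393 named genes. Rdh12 had 2 probe sets and each other gene had 1. A further probe set carries the symbols of both Rdh5 and Bloc1s1 and was kept apart. The study hybridised total retinal RNA, labelled with biotin, to Affymetrix arrays. The knockout samples came from mice labelled C57BL/6 and knockout, and the wildtype samples from C57BL/6 wildtype mice of the same age. The labels give no treatment other than removal of the retina, and do not say whether 1 array held RNA of 1 animal or of several. Any p-value here therefore weighs a difference between the groups against the variation between these arrays, and some of that variation may be technical.

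In the visual cycle, light turns the cis retinal bound to an opsin into its all-trans form, and a chain of enzymes and carriers turns it back. In the classical route the retinoid leaves the photoreceptor as retinol, is esterified and isomerised in the retinal pigment epithelium, and returns as cis retinal. Mueller glia hold retinoid-binding proteins and dehydrogenases of their own. The pigment epithelium lies against the photoreceptors and is a separate layer from the neural retina, so a dissected retina can carry differing amounts of it.

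No visual cycle probe set passed the test for a difference between knockout and wildtype retinae. Signals are the deposited linear intensities after each array was scaled to the same trimmed mean, and fold changes are on the scale of log2(signal + 19.1). Of the 10 probe sets, 7 had a mean signal above the filter of 62.4 and were tested, and 0 of these 7 had a limma adjusted p under 0.05 (adjusted p = 0.999 for each). Over all 13575 tested probe sets, 0.0147% passed. At an unadjusted p under 0.05 the count was also 0 of 7, against 3.82% of all tested probe sets. The signals of 9 of the 10 probe sets overlapped between the groups. The exception was Rpe65, with all 3 knockout arrays above all 3 wildtype arrays, a pattern found in 3.66% of the whole table. The opposite pattern, with the knockout lower, held for 0 of the 10 and for 5.18% of the whole table. The median log2 fold change of the 7 tested probe sets was 0.027, and that of all tested probe sets was 0.00031.

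**Figure D1:**
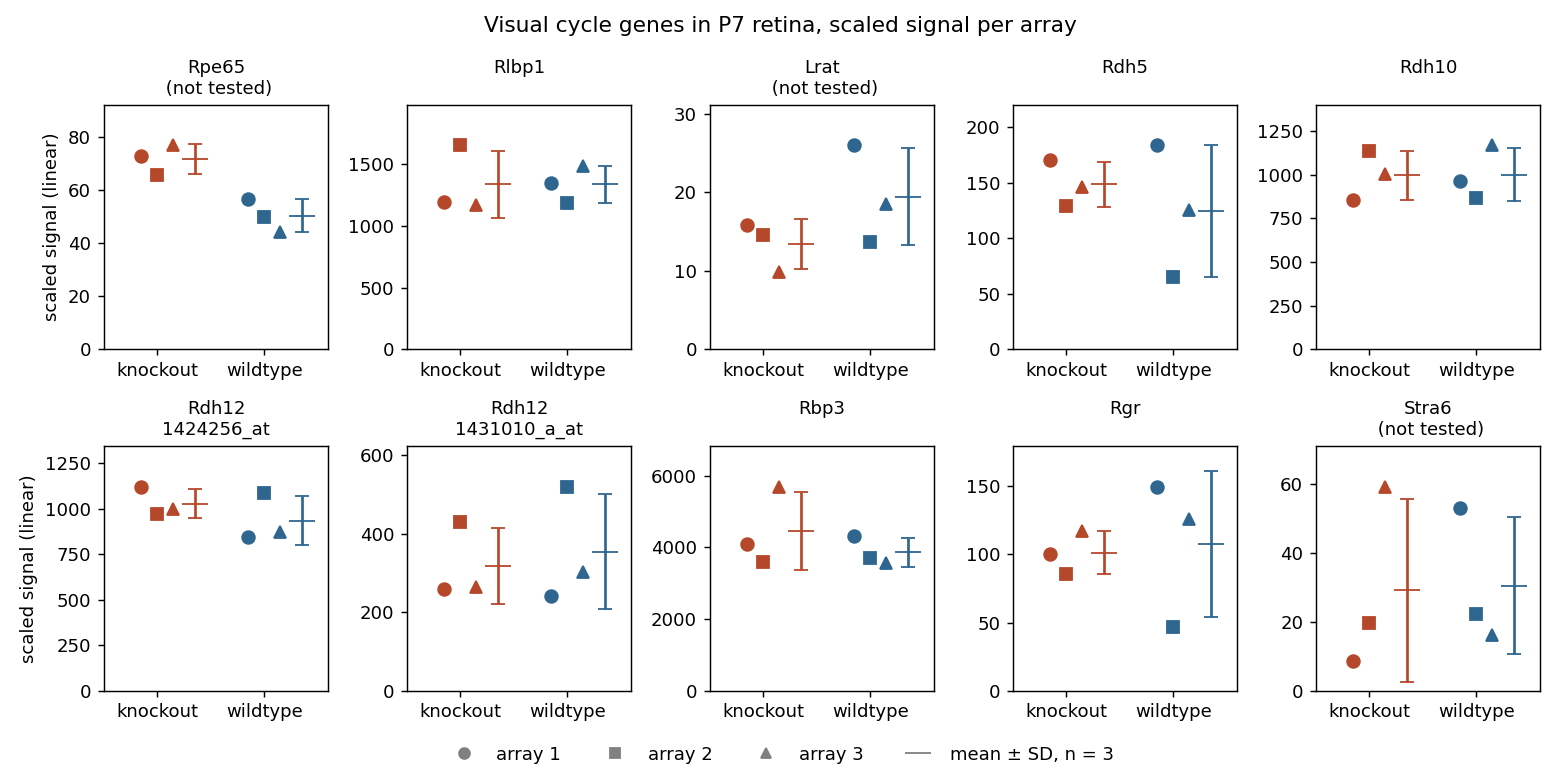
Scaled signal (linear, y axis, a scale of its own in each panel) of each visual cycle probe set in the 3 knockout arrays (left) and the 3 wildtype arrays (right), with the mean and SD of each group. Rpe65 is the panel where the groups do not overlap, and the wildtype values of Rdh5 and Rgr spread from 65.3 to 184 and from 47.0 to 149.7.

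Several facts of the arrays bear on these values. Knockout array 1 correlated with the others at 0.914 to 0.936, whereas the other 5 arrays correlated with each other at 0.958 to 0.979. The 3' to 5' signal ratio of the Actb control, a measure of RNA or labelling quality, was 2.17, 1.69 and 1.90 in knockout arrays 1 to 3 and 1.64, 1.44 and 1.59 in wildtype arrays 1 to 3, so the groups did not overlap. The same ratio of the Gapdh control was 1.18, 0.884 and 1.16 in knockout arrays 1 to 3 and 0.982, 0.824 and 0.880 in wildtype arrays 1 to 3, and the groups overlapped. Because the Actb ratio did not overlap, a fit with it as a covariate can separate it from the knockout only poorly. The mean scaled signal of the 18S ribosomal controls was 273 in knockout array 1 and 983 in wildtype array 2, against 56.1 to 63.6 in the other arrays. Before scaling, the trimmed mean was 304, 277 and 263 in knockout arrays 1 to 3 and 215, 171 and 312 in wildtype arrays 1 to 3. Wildtype array 2 was thus the dimmest and was scaled up most. Of 17 rod and cone genes listed, 15 were on the array under their own symbol and all 15 passed the filter. Results are therefore also given without knockout array 1, and without both knockout array 1 and wildtype array 2. In whole tissue, fewer cells of a type and less RNA per cell cannot be told apart.

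Promoter sequences are shown for 4 genes, because they differ in the pattern that the arrays gave. Rpe65 was the gene whose groups did not overlap, Rdh5 and Rgr both had their lowest signal in wildtype array 2, and Rbp3 is a photoreceptor gene for comparison. The windows run from 250 bases before to 50 bases after the start site in RefSeq (GRCm38.p6), and such windows were found for 8 of the 9 genes. They lie at chr3:159598931-159599230, plus strand, for Rpe65, chr10:128919248-128919547, minus strand, for Rdh5, chr14:37048965-37049264, minus strand, for Rgr and chr14:33953753-33954052, plus strand, for Rbp3. Each is printed 5′ to 3′ along the gene's strand. Capitals mark every match, on either strand, to TAATCC, a core recognised by the homeodomain factors CRX and OTX2, or to CATGTG, an E-box of the kind bound by MITF. The motifs were searched by letters alone, and none of the matches overlap.
Rpe65: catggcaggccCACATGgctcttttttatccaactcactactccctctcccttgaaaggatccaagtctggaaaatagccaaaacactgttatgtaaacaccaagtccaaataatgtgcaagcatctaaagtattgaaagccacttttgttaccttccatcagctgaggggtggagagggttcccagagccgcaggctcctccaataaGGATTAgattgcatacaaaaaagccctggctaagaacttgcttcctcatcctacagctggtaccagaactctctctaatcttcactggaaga
Rdh5: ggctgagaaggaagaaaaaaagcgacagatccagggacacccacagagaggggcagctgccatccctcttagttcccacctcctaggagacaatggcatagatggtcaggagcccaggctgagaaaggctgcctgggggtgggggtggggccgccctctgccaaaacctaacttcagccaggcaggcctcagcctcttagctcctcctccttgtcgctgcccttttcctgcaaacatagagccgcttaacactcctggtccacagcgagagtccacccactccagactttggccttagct
Rgr: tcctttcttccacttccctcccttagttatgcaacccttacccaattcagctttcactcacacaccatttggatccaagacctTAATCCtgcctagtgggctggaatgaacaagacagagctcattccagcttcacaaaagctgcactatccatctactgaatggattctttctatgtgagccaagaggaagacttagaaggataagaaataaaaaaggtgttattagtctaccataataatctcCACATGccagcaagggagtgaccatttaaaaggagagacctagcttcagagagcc
Rbp3: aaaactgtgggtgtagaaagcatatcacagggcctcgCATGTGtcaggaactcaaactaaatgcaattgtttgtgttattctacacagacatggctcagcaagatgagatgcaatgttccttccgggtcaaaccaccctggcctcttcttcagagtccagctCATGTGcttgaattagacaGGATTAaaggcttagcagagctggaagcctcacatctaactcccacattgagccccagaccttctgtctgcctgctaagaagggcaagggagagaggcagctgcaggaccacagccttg
TAATCC was present in the windows of 3 of the 8 genes, Rpe65, Rgr and Rbp3, and in 7.06% of all 32851 windows. In Rpe65 its first base lay 42 bases before the start site, in Rbp3 69 bases and in Rgr 167 bases before it. CATGTG was present in 4 of the 8, the same genes and Rlbp1, and in 14.2% of all windows. The Rdh5 window held neither. The counts of 8 are per gene, whereas the shares are per window, and a gene can have several windows. Stra6 had several, and none held a match. A match is a run of letters and says nothing of binding.

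Rpe65 encodes the isomerohydrolase of the pigment epithelium, which makes cis retinol from retinyl esters. Its scaled signal was 72.8, 65.6 and 76.8 in knockout arrays 1 to 3 and 56.7, 50.0 and 44.4 in wildtype arrays 1 to 3. The lowest knockout array thus stood above the highest wildtype array, at 65.6 against 56.7. The means were 71.7 ± 5.65 in knockout and 50.3 ± 6.17 in wildtype retinae (SD, n = 3 each), and the log2 fold change was 0.39. With a mean just under the filter, Rpe65 was not tested in the fit over filtered probe sets. In the fit with no filter its log2 fold change of 0.39 had a 95% interval from -0.06 to 0.84, or 0.96-fold to 1.79-fold, and did not pass (limma unadjusted p = 0.080, adjusted p = 0.999). The value was 0.38 without knockout array 1 and 0.38 without knockout array 1 and wildtype array 2, and it was positive in every setting run, between 0.25 and 0.62.

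Lrat, the acyltransferase that stores retinol as the ester substrate of Rpe65, was dim on every array. Its signal was 15.9, 14.6 and 9.82 in knockout arrays 1 to 3 and 26.0, 13.7 and 18.6 in wildtype arrays 1 to 3. These signals lie around the pseudocount, the groups overlapped, and the log2 fold change of -0.24 was not tested. With no filter its interval ran from 0.65-fold to 1.10-fold. Stra6, the membrane receptor through which the pigment epithelium takes up retinol from its plasma carrier, had 8.62, 19.8 and 59.3 in knockout arrays and 53.3, 22.2 and 16.3 in wildtype arrays 1 to 3. Each group held 1 array at above 50 and 2 arrays at or below 22.2, so the spread within a group was as wide as the whole range. The log2 fold change of Stra6 was -0.11 over 6 arrays, and 0.23 without knockout array 1.

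Rdh5 encodes the dehydrogenase that oxidises cis retinol to cis retinal in the pigment epithelium. Its signal was 170.4, 129.5 and 146.1 in knockout arrays 1 to 3 and 183.6, 65.3 and 125.5 in wildtype arrays 1 to 3. The highest and the lowest array both belonged to the wildtype group, and the 3 knockout arrays lay between them. The log2 fold change was 0.30 ± 0.30 (SE), with a 95% interval from 0.78-fold to 1.96-fold. It rested on wildtype array 2, without which it was -0.04. Without both knockout array 1 and wildtype array 2 it was -0.13. The probe set shared by Rdh5 and Bloc1s1 had 698, 429 and 545 in knockout arrays and 520, 431 and 398 in wildtype arrays. It cannot be assigned to either gene. The log2 fold change came to 0.28 ± 0.20 (SE), with a limma adjusted p of 0.999.

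Rgr encodes an opsin of the pigment epithelium and Mueller glia that isomerises all-trans retinal in light. It had 100.1, 85.9 and 117.6 in knockout arrays 1 to 3 and 149.7, 47.0 and 125.7 in wildtype arrays 1 to 3. As for Rdh5, the wildtype arrays held both the highest and the lowest signal, and wildtype array 2 was the lowest of all. The log2 fold change was 0.03 ± 0.33 (SE; 95% interval 0.61-fold to 1.70-fold). Without wildtype array 2 it was -0.39, and without knockout array 3 it was -0.07.

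Some pigment cell markers were also lowest in wildtype array 2. Of 15 listed genes, 13 were on the array and 9 were tested, of which 0 passed, 6 had positive and 3 negative log2 fold changes. Their summed scaled signal was 2502 to 3828 in knockout arrays and 1590 to 3494 in wildtype arrays, with the lowest sum in wildtype array 2. By gene, 6 of the 13 had their lowest signal in wildtype array 2, 4 (Tyr, Oca2, Slc45a2 and Slc16a8) in knockout array 2, and Slc45a2 had its highest signal, 143.5, in wildtype array 2. The share of all probe sets that were lowest in wildtype array 2 was not taken. These counts are therefore not read as a trait of pigment genes. None of the 13 was at 0, the lowest single value being 15.3. Ttr, the plasma partner of the retinol carrier, which the pigment epithelium also makes, had 1878, 1110 and 1485 in knockout arrays 1 to 3 and 1474, 411 and 1161 in wildtype arrays 1 to 3. Its log2 fold change was 0.70 over 6 arrays. With 1 array left out it ranged from 0.15, without wildtype array 2, to 1.05, without wildtype array 1. The melanosome genes Dct and Pmel had 374 to 599 and 371 to 581 in the knockout arrays, and their lowest values, 258 and 268, in wildtype array 2. The lowest signal of Rpe65 was in wildtype array 3, and wildtype array 2 lay between the other wildtype arrays. Among the 13 markers, 1, the dim and untested Mitf, was likewise higher in all 3 knockout arrays and lowest in wildtype array 3. Mitf had 43.4, 42.4 and 54.9 in knockout arrays 1 to 3 and 37.0, 41.9 and 25.1 in wildtype arrays 1 to 3. That separation was found in 3.66% of the whole table. The part of the pigment layer in the Rdh5 and Rgr values was not tested. With the mean of the pigment cell list as a covariate, the log2 fold change of Rgr was -0.18 and that of Rdh5 was 0.096. With the Actb ratio as a covariate the log2 fold change of Rgr was -0.58, and that of Rdh5 was -0.35. That ratio did not overlap between the groups, so these 2 values cannot tell it apart from the knockout.

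**Figure D2:**
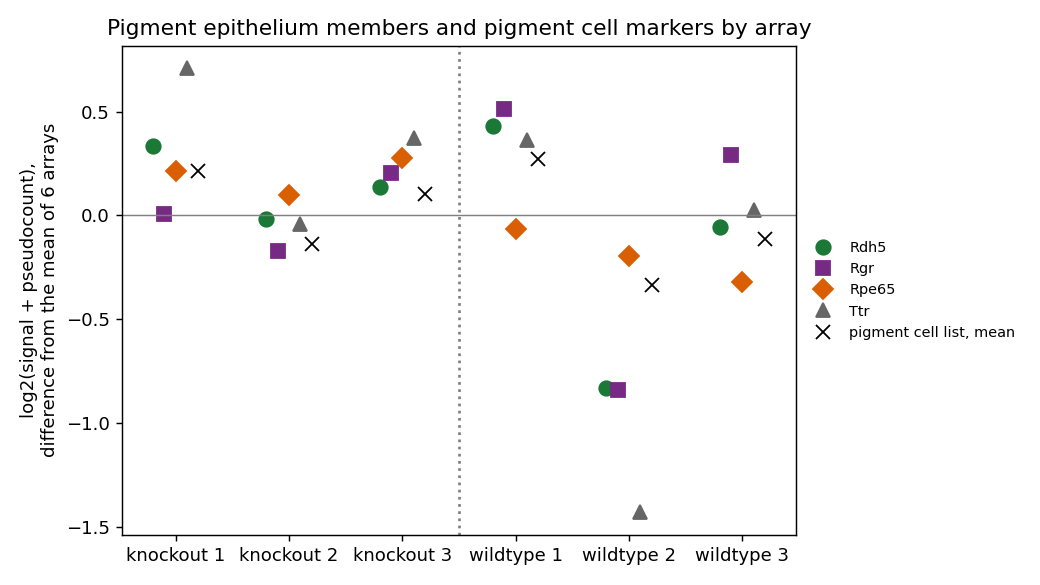
Difference of log2(signal + pseudocount) from its mean over 6 arrays (y axis) for Rdh5, Rgr, Rpe65, the marker Ttr and the mean of the pigment cell list, in knockout arrays (left) and wildtype arrays (right). Rdh5, Rgr, Ttr and the list are lowest in wildtype array 2, whereas Rpe65 is above its mean in all 3 knockout arrays and below it in all 3 wildtype arrays.

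Rdh12 encodes the dehydrogenase of photoreceptor inner segments that reduces retinal, and its 2 probe sets had different array patterns. The first, 1424256_at, had 1120, 968 and 995 in knockout arrays 1 to 3 and 842, 1086 and 873 in wildtype arrays 1 to 3. The groups overlapped through wildtype array 2, and the log2 fold change was 0.14 ± 0.15 (SE; 95% interval 0.87-fold to 1.40-fold). The second, 1431010_a_at, had 259.0, 430.7 and 264.0 in knockout arrays and 240.4, 519.9 and 303.0 in wildtype arrays. In each group its second array stood above the other two. Its log2 fold change was -0.12 ± 0.29 (SE; 95% interval 0.59-fold to 1.45-fold), opposite in sign to that of the first, and it was 0.18 without wildtype array 2 and 0.0042 without knockout array 1. Identifiers ending in _a_at mark probe sets designed against more than a single transcript of a gene.

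Rbp3, the binding protein that photoreceptors secrete and that carries retinoids across the space to the pigment epithelium, was bright on every array. It had 4100, 3596 and 5696 in knockout arrays 1 to 3 and 4326, 3701 and 3577 in wildtype arrays 1 to 3. Knockout array 3 stood above the other 5, which lay between 3577 and 4326. The log2 fold change was 0.18 ± 0.17 (SE; 95% interval 0.88-fold to 1.47-fold), and -0.0054 without knockout array 3. Among 15 rod and cone markers, 4 had positive and 11 negative log2 fold changes, with a median of -0.09, and 0 passed. Their summed signal was 35628 to 38638 in knockout arrays and 37743 to 42591 in wildtype arrays, lowest in knockout array 1. Of all tested probe sets 49.9% were negative. At an unadjusted limma p under 0.05 there were 2 of the 15, Rom1 (log2 fold change -0.34) and Opn1mw, against 3.82% of all tested probe sets. The groups did not overlap for 2, Rom1 and Sag, both lower in the knockout, against 5.18% of the whole table.

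Rlbp1 encodes the binding protein that holds cis retinoids in Mueller glia and pigment epithelium. Its signal was 1193, 1652 and 1167 in knockout arrays 1 to 3 and 1345, 1187 and 1485 in wildtype arrays 1 to 3. The knockout arrays held both the highest and the lowest value, and the means were 1337 ± 273 in knockout and 1339 ± 149 in wildtype retinae (SD, n = 3 each). The log2 fold change was -0.01 ± 0.17 (SE), and its 95% interval ran from 0.76-fold to 1.29-fold. Rdh10, a retinol dehydrogenase known for its part in retinoic acid synthesis and also found in Mueller glia and pigment epithelium, had 854, 1133 and 1004 in knockout arrays and 962, 868 and 1166 in wildtype arrays. Its means were 997 ± 140 in knockout and 999 ± 152 in wildtype retinae (SD, n = 3 each), with a log2 fold change of -0.0012 ± 0.17 (SE) and a 95% interval from 0.77-fold to 1.30-fold. Mueller glia markers other than Rlbp1 and Rgr had positive log2 fold changes in 7 and negative ones in 3 of 10 tested genes, of which 0 passed. Their summed signal was 13854 to 14152 in knockout arrays and 13391 to 13649 in wildtype arrays. Without Dbi, left out after its values were seen, the sums were 10067 to 10679 in knockout arrays and 10222 to 10627 in wildtype arrays, and overlapped. Without rescaling of the arrays Rlbp1 and Rdh10 had 0.30 and 0.31, where the median of all probe sets was 0.29.

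**Figure D3:**
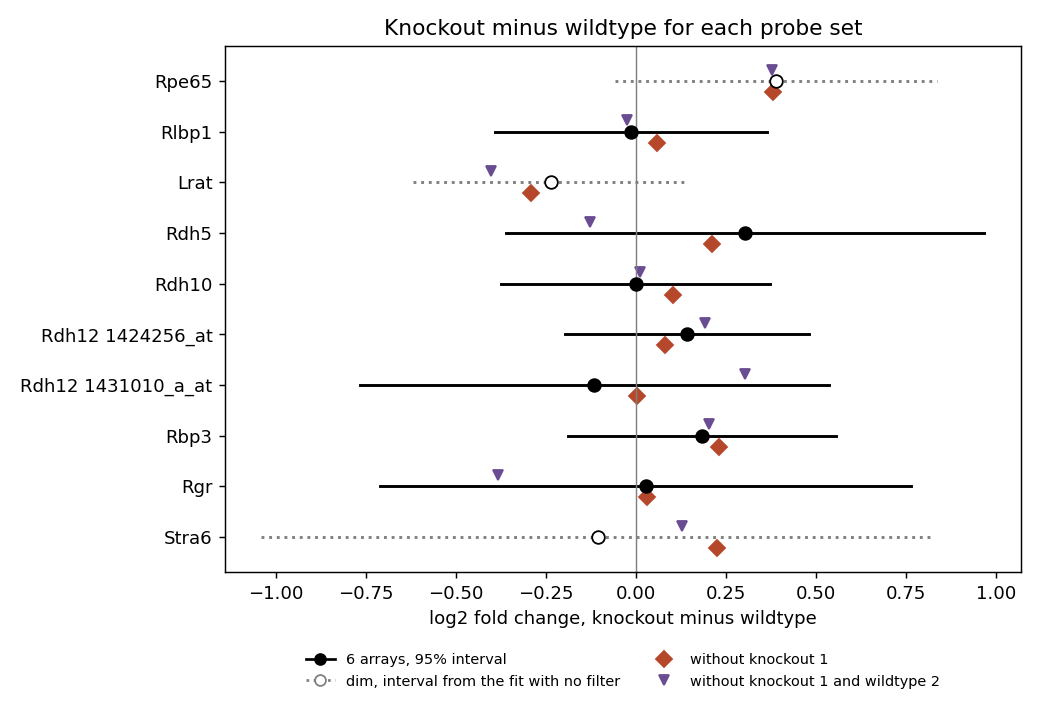
Log2 fold change, knockout minus wildtype (x axis), of each visual cycle probe set with its 95% interval from limma (solid for tested probe sets, dotted for dim ones from the fit with no filter), and the values without knockout array 1 and without knockout array 1 and wildtype array 2. All 10 intervals include 0, and the Rpe65 values lie together at 0.38 to 0.39.

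The width of the intervals followed the spread between arrays. On the log2 scale, the range over 6 arrays was 1.50 for Stra6, 1.35 for Rgr, 1.26 for Rdh5 and 1.05 for the second Rdh12 probe set. It was between 0.40 and 0.67 for the other 6 probe sets. Rlbp1 and Rdh10 each had their lower knockout signals in arrays 1 and 3 and their lowest wildtype signal in array 2. The share of all probe sets with this order was not taken, and nothing is read from it.

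The array profile of the brightest tested probe set of each tested gene was set against all named tested probe sets by Pearson's r over 6 arrays, as a description. The genes most like Rdh10 were Dnajc3 (r = 0.998), Dhdds (0.996) and Abr (0.994). Those most like Rlbp1 were Cinp (0.993), Rad21 (0.991) and Cox15 (0.991), and those most like Rbp3 were Nisch (0.993), Zeb1 (0.992) and Wdr90 (0.991). For Rgr they were Slu7 (0.992), Slc6a8 (0.980) and Rufy1 (0.978), for Rdh5 Dcun1d5 (0.986), Txnrd3 (0.982) and Czib (0.977), and for the first Rdh12 probe set Cmc2 (0.990), Srgn (0.982) and Pabpn1 (0.979). With 6 arrays, r above 0.95 was reached by 14 named probe sets for Rgr and by 89 for Rdh10, and no gene of the wider retinoid list was among the 3 most alike of these 6 probe sets.

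Other genes of retinoid transport, oxidation and signalling, listed together with opsins and a few further genes, did not pass either. Of 53 listed, 42 were on the array under their own symbol and 24 were tested, of which 0 rose and 0 fell. At an unadjusted p under 0.05 there was 1 of 24, the cone opsin Opn1mw. Opn1mw and Opn1sw are also among the rod and cone markers, so they are counted in both lists. Positive log2 fold changes were found for 17 and negative ones for 7, with a median of 0.10, whereas 50.1% of all tested probe sets were positive. Over all 42 genes, with no filter, 22 were positive and 20 negative, with a median of 0.011. Without knockout array 1 the split of the 24 was 12 and 12 and the median 0.0062, and without knockout array 1 and wildtype array 2 it was 11 positive and 13 negative. It was also 11 and 13 with array weights or with the Actb ratio, which did not overlap between the groups, as a covariate. The split stayed at 17 and 7 without knockout array 3, wildtype array 1 or wildtype array 2. It was 18 and 6 without knockout array 2, and 16 and 8 without wildtype array 3 or with quantile normalization. Median scaling gave 19 and 5, and no rescaling 22 and 2, where 66.5% and 87.6% of all tested probe sets were positive. Among all 42, the arrays did not overlap for 2 genes with the knockout higher and for 1 with it lower, where 3.66% and 5.18% of the whole table did so, and nothing is read from these counts.

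Opn1mw, a cone pigment, had 16.9, 85.4 and 45.3 in knockout arrays 1 to 3 and 78.0, 81.7 and 126.6 in wildtype arrays 1 to 3. Its log2 fold change was -0.85 (95% interval 0.31-fold to 0.98-fold). With 1 array left out it ranged from -1.23, without knockout array 2, to -0.46, without knockout array 1. Rdh11, a retinal reductase, had 103.5, 231.8 and 164.5 in knockout arrays and 194.4, 224.7 and 266.4 in wildtype arrays, a log2 fold change of -0.47. For Rdh11 the range was from -0.71, without knockout array 2, to -0.20, without knockout array 1. Its values overlapped between the groups. With the Actb ratio as a covariate the log2 fold changes were positive, 0.077 for Opn1mw and 0.22 for Rdh11. Since that ratio did not overlap between the groups, its part and that of the knockout cannot be told apart.

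Adh5, an alcohol dehydrogenase, had 1401, 1262 and 1193 in knockout arrays 1 to 3 and 1004, 1111 and 1036 in wildtype arrays 1 to 3. All 3 knockout arrays stood above the wildtype arrays, with a log2 fold change of 0.29 ± 0.13 (SE; 95% interval 0.99-fold to 1.50-fold), and it did not pass (limma adjusted p = 0.999). The log2 fold changes of Scarb1, a lipoprotein receptor in carotenoid uptake, the lipocalin Ptgds and the retinal reductase Dhrs3 were 0.21, 0.25 and 0.25, and that of the retinoic acid receptor Rarb was -0.22. Abca4, which flips retinoids across photoreceptor discs, had 0.10. With 1 array left out, Ptgds ranged from 0.02, without knockout array 1, to 0.42, without knockout array 2.

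The second gene that was higher in all 3 knockout arrays was Aldh1a3, a retinaldehyde dehydrogenase that makes retinoic acid, and it was chosen here after its values were seen. It was dim and not tested, with 33.5, 23.3 and 11.6 in knockout arrays 1 to 3 and 5.11, 4.35 and 4.17 in wildtype arrays 1 to 3. Its highest knockout signal was in array 1, and all 3 wildtype signals lay well below the pseudocount. The gene that was lower in all 3 knockout arrays, Rbp2, a cellular retinol-binding protein, was also dim and chosen after its values were seen, with 6.85, 10.1 and 8.52 in knockout arrays and 11.1, 25.5 and 23.8 in wildtype arrays.

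**Figure D4:**
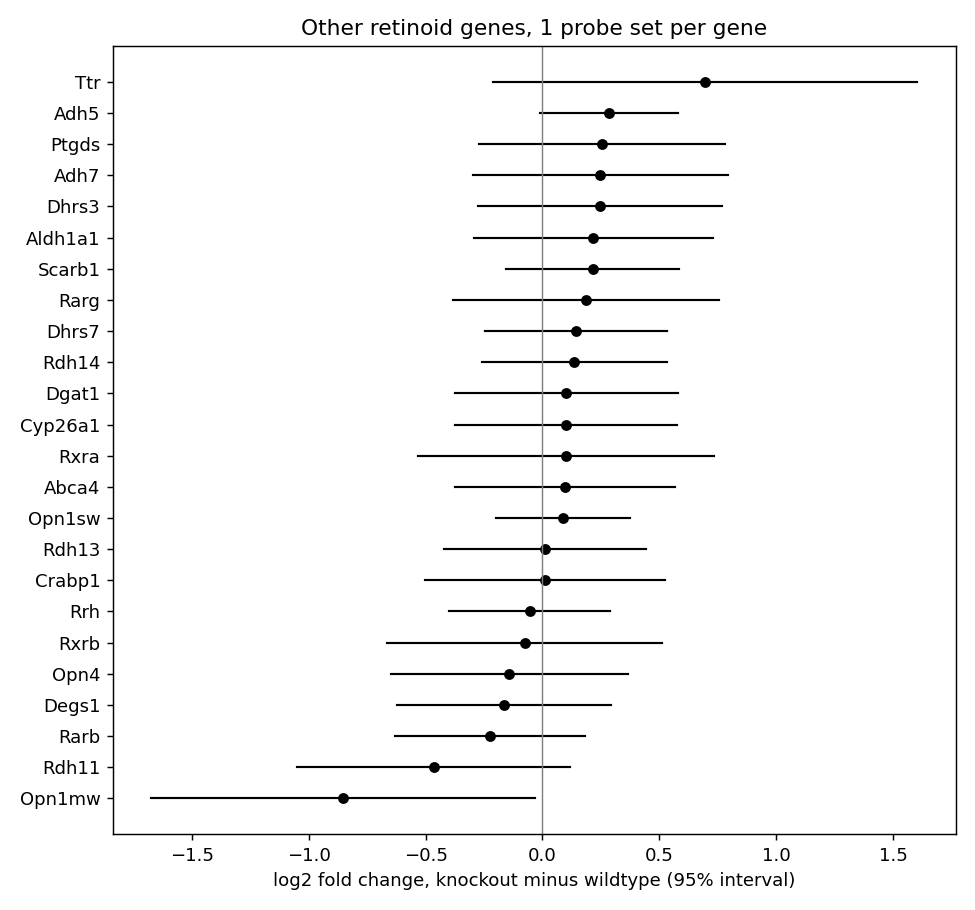
Log2 fold change, knockout minus wildtype (x axis), with 95% intervals from limma, for the 24 tested genes of the wider retinoid list, 1 probe set per gene. Opn1mw at -0.85 is the only gene whose interval excludes 0, and it did not pass after adjustment.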

How the data were processed

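Retinal RNA of 3 knockout and 3 wildtype samples was hybridised by the study to Affymetrix arrays. The deposited table holds a linear intensity for every probe set on every array, computed with MAS5 according to the submitters' processing notes. Version, scaling target and detection calls are not given in the sources used here. The targeted gene is not reported here.

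After removal of 64 control probe sets, arrays were brought to a common mean, with 2% trimmed at each end. Before log2, 19.1 was added (the scaled signals' 20th percentile), which understates fold changes of dim probe sets. The test covered the 13575 probe sets whose mean signal exceeded the 40th percentile. Knockout minus wildtype was fitted over the whole table using limma 3.58.1 under R 4.3.3 (lmFit, then eBayes with an intensity trend; two-sided), with Benjamini-Hochberg adjustment at 0.05. The fit was tested on simulated data. Gene names came from the platform annotation, brought up to date by Entrez identifier. A single symbol was held by 20380 probe sets, several by 691 and none by 1555. Wider lists used the brightest tested probe set of a gene. The rule for names took up to 8 wider retinoid genes by the size of the moderated statistic, with Ttr, Abca4 and Rdh11 whatever their values, and up to 3 genes of a marker list. Aldh1a3, Rbp2, and the pigment and Mueller glia markers named beyond 3 a list were chosen after their values were seen. The members and lists were chosen with earlier results of these data known. The number of arrays limits the precision.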

Additional observations from a re-analysis of the deposited data

How the results depend on the processing

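In 20 settings, 0 visual cycle probe sets and 0 of the wider retinoid genes passed. The lowest limma adjusted p of a member was 0.68, without knockout array 2, and of a wider gene 0.58. The count of all probe sets past the threshold (2) was 10 without rescaling, 4 without wildtype array 2, 4 without knockout 1 and wildtype 2, 1 with no filter, without knockout array 2 or without knockout array 3, and 0 with the ordinary statistic, the Actb ratio as a covariate or without wildtype array 3. Single log2 fold changes turned sign in 37 of 198 cases, none of them of Rpe65, Lrat or the first Rdh12 probe set.

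Without rescaling the median of all probe sets moved by 0.29, and the visual cycle median was 0.38, with Rlbp1 at 0.30, Rdh10 at 0.31, the second Rdh12 probe set at 0.18 and Stra6 at 0.060. That visual cycle median covered 8 probe sets, not the 7 of the main fit, because Rpe65, at 0.62, passed the filter there. It is therefore not compared with the median of all probe sets. With the Actb 3' to 5' ratio as a covariate the median was 0.14, with Rlbp1 at 0.19, Rdh5 at -0.35, Rdh10 at 0.17, the second Rdh12 at 0.69, Rgr at -0.58 and Stra6 at 0.039. With the pigment cell mean as a covariate Rlbp1 had 0.011, Rdh10 0.020, the second Rdh12 0.095 and Rgr -0.18. Median scaling gave Rlbp1 0.079 and Rdh10 0.091, array weights gave 0.044 and 0.12, and the higher pseudocount gave Rgr -0.0030. Without knockout 1 and wildtype 2, Rdh5 had -0.13, Rdh10 0.010, the second Rdh12 0.30, Rgr -0.38 and Stra6 0.13. The Actb ratio did not overlap between the groups, so the fit with it separates it from the knockout only poorly. The cause of these shifts was not tested.

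With 1 array left out, the visual cycle median ranged from -0.037 to 0.12, Rlbp1 from -0.17 to 0.073, Rdh5 from -0.037 to 0.60, Rdh10 from -0.096 to 0.11, the second Rdh12 from -0.34 to 0.18, Rbp3 from -0.0054 to 0.32, Rgr from -0.39 to 0.29 and Stra6 from -0.53 to 0.23. At the stricter filter, Rdh5 and Rgr were not tested. A replicate block fit called 0 members and left the median at 0.027. The labels do not say that numbers pair samples, and the correlations of deviations between arrays sharing a number were 0.18, -0.03 and 0.08. Dim signals limit Lrat, Stra6 and Rpe65.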
